A study of Caenorhabditis elegans with 12 samples.

Results

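The potassium channel genes of Caenorhabditis elegans were followed in whole adult animals moved from 23 °C to 17 °C. Members were all genes named twk, kqt, kvs, irk, slo or kcnl with a number, together with egl-2, egl-23, egl-36, exp-2, shk-1, shl-1, unc-58, unc-103 and sup-9, wherever a probe set carried that symbol alone. A probe set is a group of short oligonucleotides on the array, designed against a transcript or a set of like transcripts. The rule found 65 genes among the 17118 measured, read by 79 probe sets, and the brightest probe set over the 12 arrays stands for each gene. All animals were of the wild-type laboratory strain N2 Bristol, grown at 23 °C for 2.5 days from embryos to adults and lysed whole. Of the 12 arrays, 4 came from animals not yet moved (0 h), 2 from animals 1 h after the move, 2 from 2 h and 4 from 4 h. No array came from animals held at 23 °C for the same hours, so time, handling and temperature cannot be told apart. Whether replicates were separate cultures is not stated, and the p-values measure only the spread between these samples.

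Potassium channels let potassium ions leave the cell, which returns the membrane toward its resting voltage and sets how easily neurons and muscles fire. Voltage-gated channels of the Shaker, Shal, Shaw, EAG, ERG and KCNQ types open on depolarisation, SLO and SK-type (kcnl) channels respond to intracellular ions, and inward rectifiers (irk) pass current near rest. Tandem-pore channels, the twk family with sup-9, egl-23 and unc-58, carry background currents and form by far the largest group in this nematode.

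Of the 65 members, 45 were tandem-pore genes, 8 were voltage-gated genes of the Shaker, Shaw and related kvs types, 2 were EAG and ERG genes, 3 were KCNQ genes, 4 were ion-activated genes and 3 were inward rectifiers. The rule fits 5 more genes of the WBcel235 gene table. Of these, shl-1 and twk-48 were not analysed here, kcnl-1 and kcnl-2 are listed under 2 gene records each, and twk-44 shares its probe set with spp-30 (change at 4 h -0.09, adjusted p = 0.883). The names of 12 of the 65 probe sets carry the suffix of those that may read more than 1 transcript, among them those of twk-31, twk-46, sup-9, shk-1, kvs-5 and slo-2, and so does the second probe set of kqt-2. Expression is given as log2 signal, so a difference of 1 is a 2-fold change. Probe sets differ in brightness for technical reasons, and levels are therefore compared between arrays and not between genes. Potassium channel probe sets were mostly dim: 60 of 65 had a mean below the average array median of 5.54, against 51.9% of all genes, and 22 of 65 lay below the average lower quartile of 3.59, against 26.2% of all genes. Signal over background was not assessed, so small changes near that quartile are uncertain in size. For the whole-body label, 49 of 52 listed markers of neurons, muscle, pharynx, intestine, hypodermis, germline and sperm were measured. All lay above the lower quartile, and 26.2% of all genes lay below it. That quartile is no limit of detection, so the count cannot show that each tissue was captured.

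After 4 h at 17 °C, 2 of the 65 genes had risen, 0 had fallen and 63 did not pass the threshold of an adjusted p of 0.05 in limma, fitted over all probe sets of the 12 arrays. The 2 were kqt-2, a KCNQ-type channel gene, and twk-26, a tandem-pore gene. Over all 17118 genes, 2.48% passed in this comparison, so 2 of 65 (3.08%) was a share near the background. The median change of the members was -0.01, beside -0.01 for all genes, with 31 members above 0 and 34 below (45.4% of all genes lay above). Only kqt-2 differed from 0 h by 0.5 or more in size, against 1.94% of all genes. At 2 h, 1 member (kqt-2) had risen and 0 had fallen, against 1.06% of all genes called. At that time 34 members lay above 0 (46.6% of all genes), and 1 differed by 0.5 or more in size (2.38% of all genes). At 1 h limma called 0 members and 0 of all genes (0.0%), and 3 members had an unadjusted p under 0.05, against 6.44% of all genes. There 30 members lay above 0 (46.9% of all genes), and 0 differed by 0.5 or more in size (0.765% of all genes).

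The KCNQ family holds the largest change. These channels open slowly on depolarisation and dampen repeated firing, and in C. elegans kqt-2 and kqt-3 are known from the intestine while kqt-1 is known from pharynx and neurons. The brightest kqt-2 probe set read 6.11, 5.89, 6.46 and 6.30 in the 4 arrays at 0 h. It read 6.69 and 6.28 at 1 h, 6.99 and 7.69 at 2 h, and 8.09, 8.23, 8.25 and 8.12 at 4 h. The 4 h arrays all lay above both 2 h arrays, both 2 h arrays lay above all arrays of 0 h and 1 h, and 1 of the 2 arrays at 1 h lay within the 0 h range. The level at 4 h was 8.17 ± 0.0778 against 6.19 ± 0.247 at 0 h (SD, n = 4 each), 3.95-fold higher (log2 change 1.98, SE 0.154, adjusted p = 6.6e-05). Since RNA came from whole animals, a change in RNA per cell and a change in the number of cells of a type cannot be told apart.

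The mean level of kqt-2 was higher at each later time. At 1 h the change was 0.30 (SE 0.188, adjusted p = 0.848), and at 2 h it was 1.15 (SE 0.188, adjusted p = 0.0103), or 2.21-fold. The single steps from 1 h to 2 h (0.85, adjusted p = 0.382) and from 2 h to 4 h (0.83, adjusted p = 0.173) were of similar size and did not pass. With only 1 array left at 2 h, whose spread is then taken from the other groups, the change was 0.80 without replicate 2 (adjusted p = 0.257) and 1.498 without replicate 1 (adjusted p = 0.00376). The 2 h call was also lost with the arrays of replicate numbers 1 and 2 alone (1.34, adjusted p = 0.087), the numbers that all arrays of 1 h and 2 h carry. The 4 h call was kept without each single array, with changes from 1.88 to 2.07. Between 0 h and 4 h arrays of the same replicate number the differences were 1.98, 2.34, 1.78 and 1.82.

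In the other probe sets of kqt-2 the 4 h arrays were also higher, by much less. The second read 5.87, 5.97, 5.95 and 5.87 at 0 h, 6.03 and 6.08 at 1 h, 6.15 and 6.38 at 2 h, and 6.46, 6.46, 6.20 and 6.06 at 4 h. All 8 arrays after the move lay above all 4 arrays at 0 h in this probe set. Its change at 4 h was 0.38 (95% interval 0.17 to 0.59, adjusted p = 0.0658), an interval well below that of the brightest probe set (1.65 to 2.31). The third and dimmest read 3.40 to 3.60 at 0 h and 3.62 to 3.85 at 4 h, so these groups did not overlap either (change 0.27, adjusted p = 0.17). With the mean of the 3 probe sets in place of the brightest, the 4 h change was 0.88 (adjusted p = 0.000102) and the 2 h change 0.54 (adjusted p = 0.0153). The direction is thus shared by the 3 probe sets at 4 h, and the size depends on which is read.

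**Figure D1:**
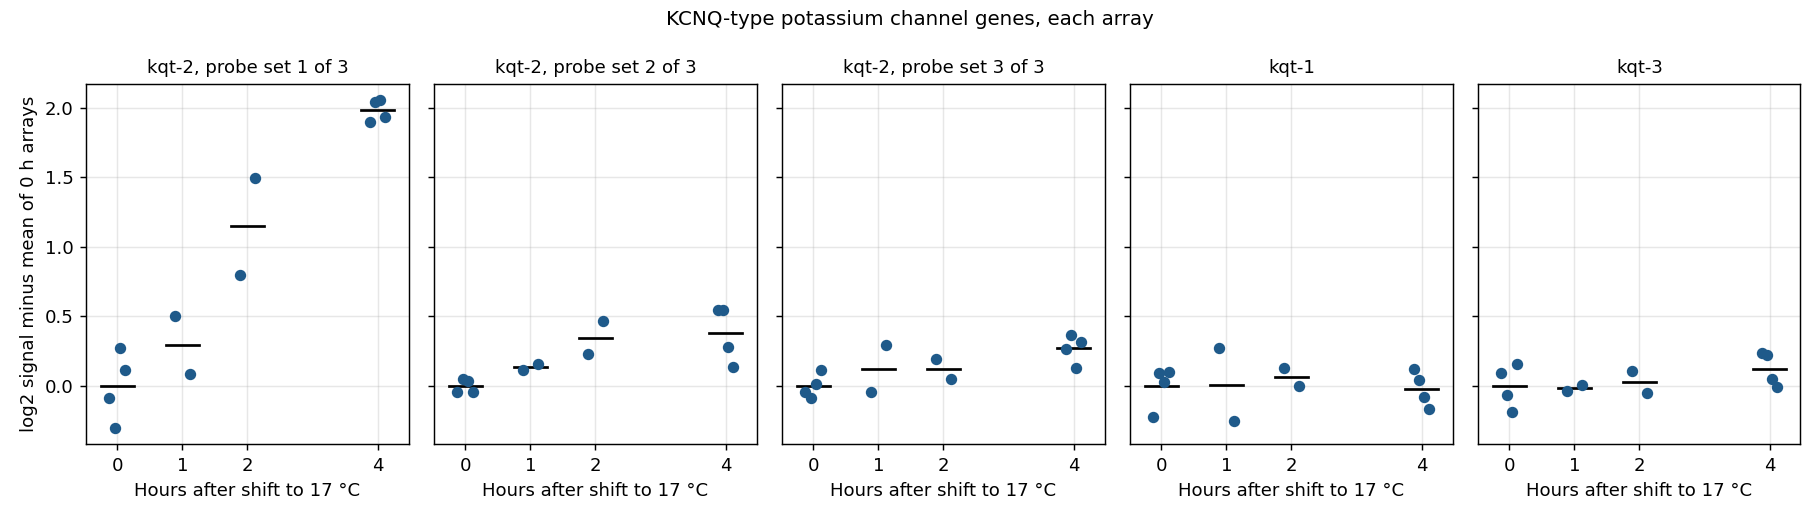
Log2 signal minus the mean of the 0 h arrays (vertical axis) against hours after the move to 17 °C (horizontal axis) for the 3 probe sets of kqt-2 and the brightest probe sets of kqt-1 and kqt-3. Points are arrays and bars are means of a time. The 4 h mean of the first kqt-2 probe set lies at 1.98 and those of the others at 0.38 and 0.27, while the 4 h means of kqt-1 and kqt-3 lie at -0.02 and 0.13.

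The other KCNQ genes showed no such change. The level of kqt-3 was 6.30 ± 0.155 at 0 h and 6.43 ± 0.121 at 4 h (SD, n = 4 each), a change of 0.13 (95% interval -0.07 to 0.32, adjusted p = 0.664). That of kqt-1 was 3.83 ± 0.151 and 3.81 ± 0.129, a change of -0.02 (95% interval -0.27 to 0.23, adjusted p = 0.974). Both intervals lie below that of the brightest kqt-2 probe set and overlap that of the second. At 2 h the change of kqt-3 was 0.03 and that of kqt-1 0.07, and neither passed (adjusted p = 0.947 and 0.903).

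Some markers of the intestine, where kqt-2 is known to be expressed, also passed at 4 h. There were 8 measured genes in this list, of which 2 rose and 1 fell, against 2.48% of all genes called, while 5 did not pass, and the median change was 0.19. At an unadjusted p under 0.05 there were 7 of the 8 at 4 h (13% of all genes) and 5 at 2 h (12.8% of all genes). The list was chosen with earlier results of these data known, so these shares are descriptive and not an independent test. An increase of 0.91 was found for pept-1, a carrier of peptides (adjusted p = 0.000127). A larger one of 1.03 was found for cpr-1, a protease gene (adjusted p = 0.0138), while vha-6, which encodes part of a proton pump, fell by 0.30 (adjusted p = 0.0421). Leaving out the third or the fourth array of 0 h ended the call of cpr-1 (adjusted p = 0.0508 and 0.0519), and vha-6 was lost without any one of 11 of the 12 arrays (adjusted p up to 0.127). The summed log2 level of the 8 markers ran from 59.5 to 60.3 over the 0 h arrays and was 60.9 in both arrays at 1 h. It ran from 61.1 to 61.5 at 2 h and from 61.3 to 63.0 at 4 h. Most of the 4 h difference in this sum came from pept-1 and cpr-1. The changes of the other markers at 4 h ran from -0.30 (vha-6) to 0.23 (elt-7), and ges-1 also lay lower (-0.18). The part of these markers in the kqt-2 change was not tested.

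Among the tandem-pore channels 1 of 45 genes rose at 4 h and 0 fell, against 2.48% of all genes called. The changes ran from -0.32 to 0.40 with a median of -0.01. These channels carry leak currents that hold the resting voltage. The gene that rose, twk-26, read 4.91, 5.08, 4.86 and 4.89 at 0 h and 5.28, 5.42, 5.40 and 5.23 at 4 h. Its arrays at 1 h read 4.67 and 5.04 and those at 2 h 4.66 and 4.72. The 4 h arrays lay above all others, and both 2 h arrays lay below all 4 arrays at 0 h. The level was 4.93 ± 0.097 at 0 h and 5.33 ± 0.0899 at 4 h (SD, n = 4 each). This is a change of 0.40 (1.32-fold, SE 0.0891, adjusted p = 0.0327). At 1 h it was -0.08 (adjusted p = 0.954) and at 2 h -0.24 (adjusted p = 0.375).

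The call of twk-26 depended on single arrays. It was lost without any one of 6 arrays (replicates 1, 3 and 4 at 0 h and replicates 1, 2 and 3 at 4 h), with adjusted p from 0.0572 to 0.103. It was also lost with the arrays of replicate numbers 1 and 2 alone (0.36, adjusted p = 0.516). The 4 differences between 0 h and 4 h arrays of the same number were 0.374, 0.347, 0.535 and 0.345. Between 2 h and 4 h the difference of twk-26 was 0.64 (SE 0.109, adjusted p = 0.0696). Without either single array at 1 h this step passed (adjusted p = 0.0297 each). Over the 12 arrays limma called 0 members from 2 h to 4 h, where 0.0701% of all genes passed, and 9 members had an unadjusted p under 0.05, against 11.1% of all genes.

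The other 44 tandem-pore genes did not pass at 4 h, and twk-31 came nearest. The level of twk-31 was 4.90 ± 0.0801 at 0 h and 4.62 ± 0.0836 at 4 h (SD, n = 4 each), with arrays of 4.82 to 5.01 and 4.55 to 4.74 (change -0.28, SE 0.0695, adjusted p = 0.0534). It passed without replicate 2 at 4 h (adjusted p = 0.0491) and with 1 mean value per gene (adjusted p = 0.0408), where fewer values are tested. Its arrays at 1 h and 2 h read 4.95 to 5.04, 3 of them within the 0 h range and 1 just above it. The level of unc-58, known from mutants with impaired movement, ranged from 4.20 to 4.50 at 0 h and from 3.73 to 4.14 at 4 h, the lowest change of all members (-0.32, adjusted p = 0.18). Its other probe set had a change of -0.07. The gene twk-1 had a change of 0.31 (adjusted p = 0.308), and with a replicate block over the 8 arrays of 0 h and 4 h it passed (adjusted p = 0.0473), though not over the 12 arrays (0.173).

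Tandem-pore genes with known roles did not pass at 4 h. The channel gene sup-9, whose product acts with UNC-93 and SUP-10 in muscle, had a change of 0.15 (95% interval -0.02 to 0.32, adjusted p = 0.479). The gene egl-23, known from gain-of-function mutants that retain eggs, had a change of -0.06 (95% interval -0.25 to 0.12). The muscle channel gene twk-18, whose product carries more current at higher temperature, read 4.91 to 5.22 at 0 h and 4.87 to 5.25 at 4 h. Its change was 0.01 (95% interval -0.31 to 0.32, adjusted p = 0.995), and that of its other probe set was 0.11. The gene twk-40, known from command interneurons of locomotion, had a change of 0.03 (95% interval -0.18 to 0.23). For twk-7, known from motor neurons, the brightest probe set had a change of 0.26 (adjusted p = 0.315) and the other one of -0.11 (adjusted p = 0.78).

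Over all members the 0 h and 4 h arrays did not overlap for 7 genes, 10.8% against 9.36% of all genes. Above every 0 h array lay kqt-2, twk-26 and twk-7, and below lay twk-31, twk-49, unc-58 and irk-3. An unadjusted p under 0.05 was reached by 10 members (15.4%, against 13% of all genes), these 7 and twk-1, twk-22 and twk-46. Both shares were near the background. Of these genes twk-1, twk-22, twk-46 and twk-49 were named after their values were seen, as are twk-2, twk-17, twk-21, twk-35 and twk-45 at other places. The changes of twk-22, twk-46 and twk-49 were -0.29 (adjusted p = 0.209), 0.19 (adjusted p = 0.383) and -0.28 (adjusted p = 0.251). The gene twk-49 lay below the lower quartile in all 12 arrays. At 2 h, 11 members did not overlap with 0 h (21.9% of all genes did so), and at 1 h 7 members (14.5% of all genes).

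**Figure D2:**
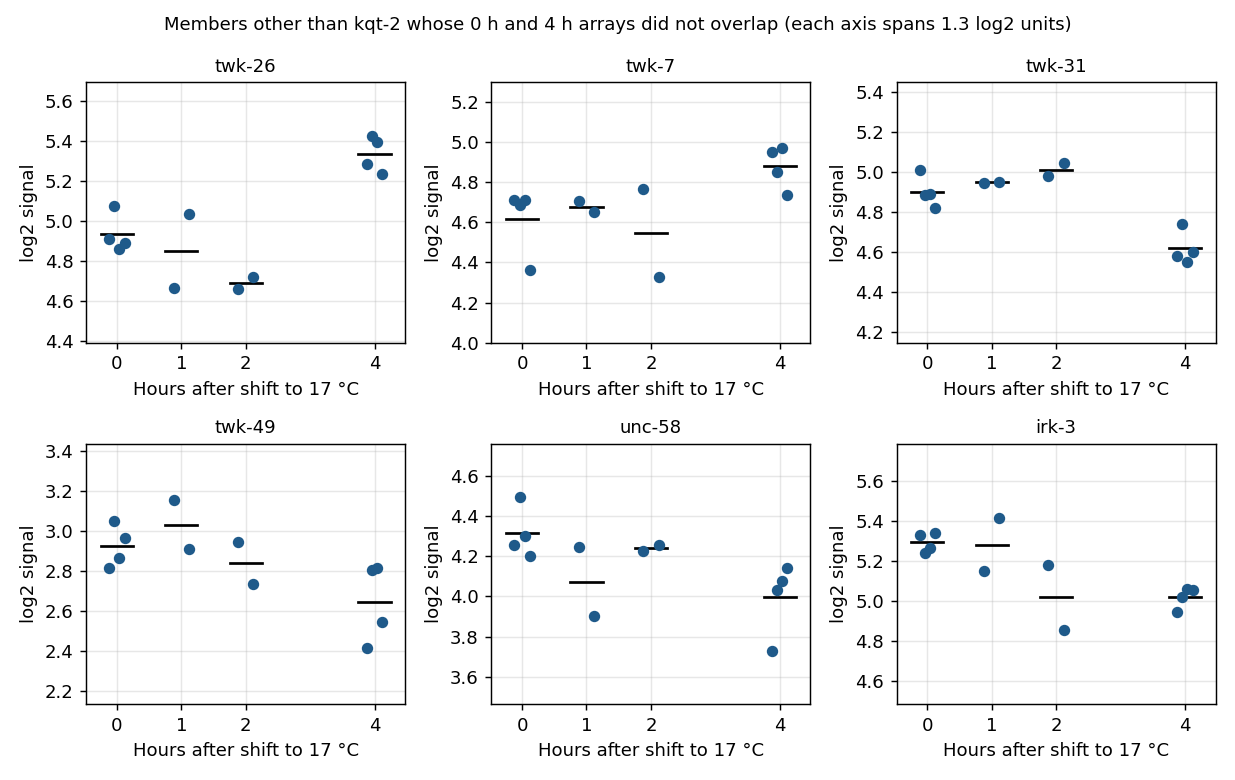
Log2 signal (vertical axes, each spanning 1.3 log2 units) against hours after the move to 17 °C for the 6 members other than kqt-2 whose arrays at 0 h and 4 h did not overlap. Points are arrays and bars are means of a time. For twk-26 the 4 arrays at 4 h sit between 5.23 and 5.42, above all others, and for twk-31 between 4.55 and 4.74, below all others.

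Voltage-gated channel genes gave 0 calls at 4 h in 8 measured, where 2.48% of all genes were called. Their changes ran from -0.15 to 0.20 with a median of 0.01. Of these, 0 had an unadjusted p under 0.05, against 13% of all genes. The Shaker-type gene shk-1, a main delayed rectifier of neurons and body wall muscle, was at 3.59 ± 0.17 at 0 h and 3.63 ± 0.102 at 4 h (SD, n = 4 each), a change of 0.04 (95% interval -0.19 to 0.28). The Shaw-type gene egl-36, known from egg-laying mutants, read 3.49 to 3.90 at 0 h, 4.23 and 3.85 at 1 h, and 3.75 to 3.93 at 4 h. Its change of 0.39 at 1 h was the highest of the members at that time (SE 0.13, adjusted p = 0.601), with 1 of the 2 arrays within the 0 h range, and at 4 h it was 0.20 (adjusted p = 0.483). The gene exp-2, which repolarises the pharyngeal muscle, had a change of 0.05 (95% interval -0.22 to 0.32) and lay below the lower quartile in all 12 arrays. The genes kvs-1 and kvs-5 had changes of -0.08 and -0.15 (adjusted p = 0.862 and 0.746).

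The EAG-type gene egl-2, active in sensory neurons and muscle, was at 4.23 ± 0.0949 at 0 h and 4.32 ± 0.053 at 4 h (SD, n = 4 each). Its change was 0.09 (95% interval -0.08 to 0.25, adjusted p = 0.739). The ERG-type gene unc-103, which restrains muscle excitability in the vulva and in male mating, had a change of 0.00 (95% interval -0.21 to 0.22). Its 2 other probe sets had changes of 0.17 and -0.16, and no one direction was shared by the 3.

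Ion-activated channel genes gave 0 calls at 4 h in 4 measured (changes from -0.23 to 0.09), where 2.48% of all genes were called. An unadjusted p under 0.05 was reached by 0 of them, against 13% of all genes. The BK-type gene slo-1, a calcium-activated channel of neurons and muscle and a target of ethanol and the drug emodepside, was at 3.81 ± 0.23 at 0 h and 3.77 ± 0.0997 at 4 h (SD, n = 4 each), a change of -0.04 (95% interval -0.29 to 0.21). Its relative slo-2 read 3.05 to 3.69 at 0 h and 2.72 to 3.66 at 4 h, a change of -0.20 (95% interval -0.60 to 0.20). The change of its other probe set was 0.09. These probe sets lay below the lower quartile in 10 and 11 of the 12 arrays. The SK-type gene kcnl-3 had a change of -0.23 (adjusted p = 0.539). Probe sets listed under 2 gene records of kcnl-1 and of kcnl-2, which is known from egg-laying, had changes of 0.16 (adjusted p = 0.671) and 0.06 (adjusted p = 0.912).

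The 3 inward rectifier genes gave 0 calls at 4 h, where 2.48% of all genes were called. The gene irk-3 read 5.33, 5.24, 5.26 and 5.34 at 0 h and 4.95, 5.02, 5.06 and 5.05 at 4 h. All 4 h arrays lay below all 0 h arrays, with a change of -0.27 (SE 0.0844) that did not pass (adjusted p = 0.139, unadjusted p = 0.00641). At 2 h the change was -0.28 (adjusted p = 0.279), with arrays of 5.18 and 4.86, and at 1 h it was -0.01. The gene irk-1, which silences the egg-laying neuron HSN, had a change of -0.13 at 4 h (95% interval -0.36 to 0.10), and it lay below the lower quartile in all 12 arrays.

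**Figure D3:**
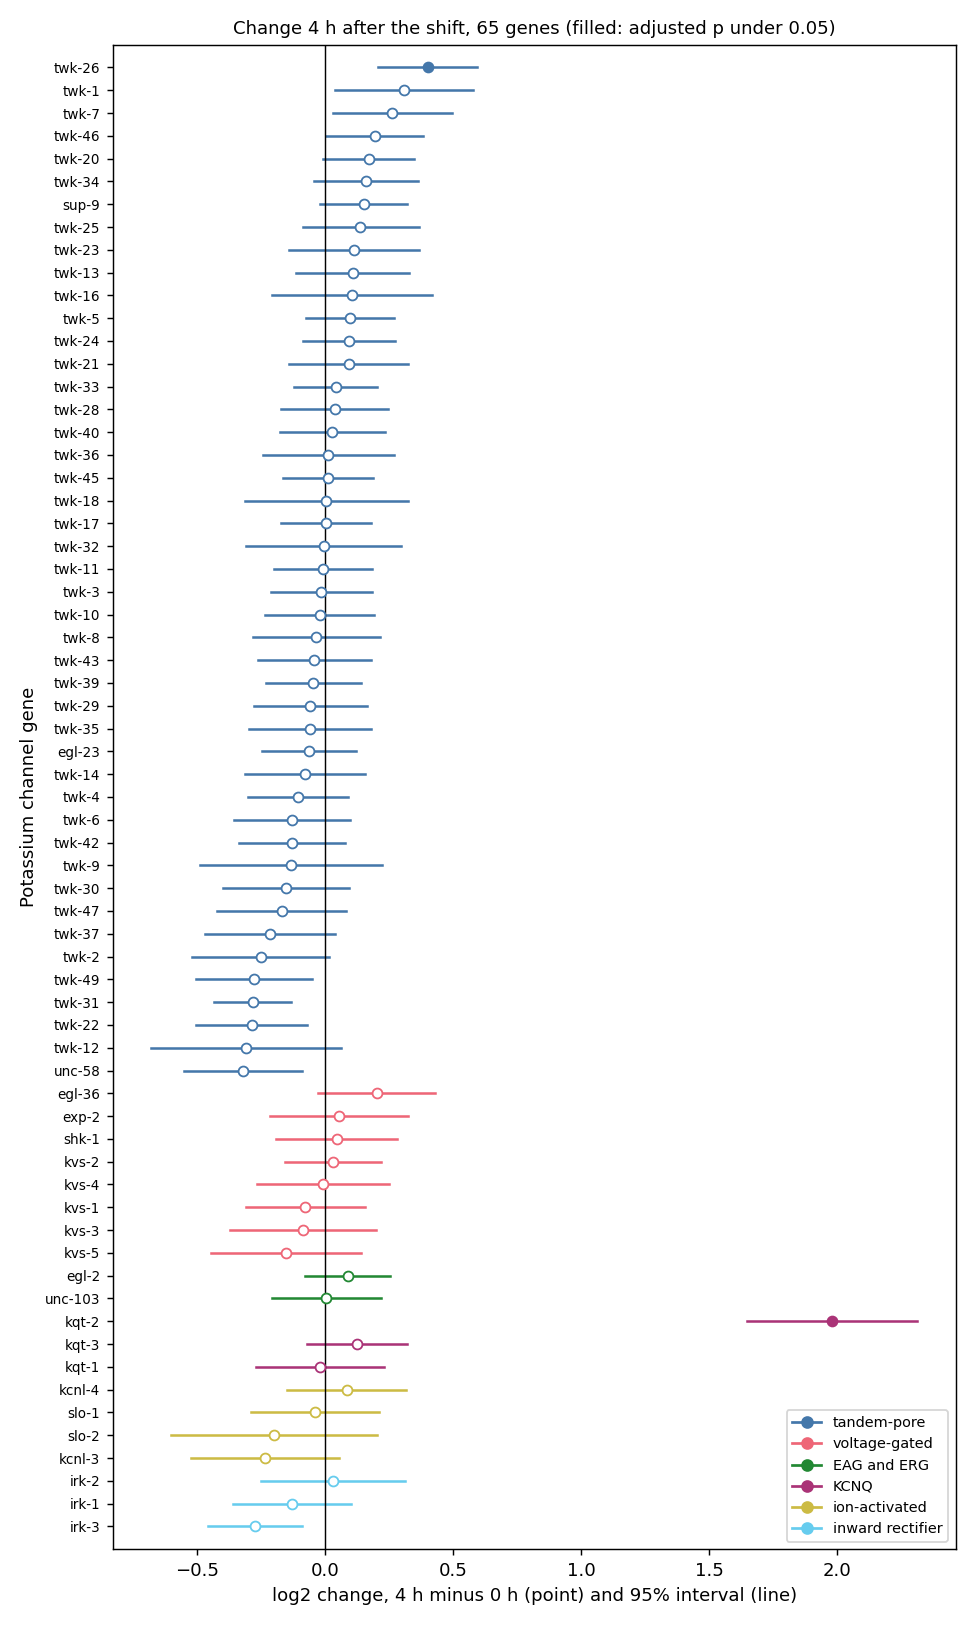
Log2 change from 0 h to 4 h (horizontal axis, points) with 95% intervals (lines) for the 65 potassium channel genes, ordered by class and by change. Filled points passed an adjusted p of 0.05. Only kqt-2 (1.98) and twk-26 (0.40) are filled, and the other 63 lie between -0.32 and 0.31.

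For most members the intervals bounded the change in log2 signal closely. They measure the spread between arrays and do not bound the change in RNA, since most members were dim and signal over background was not assessed. For kqt-2 the change at 4 h was 0.27 in the dimmest probe set and 1.98 in the brightest. The changes of the 63 genes not called at 4 h ran from -0.32 to 0.31, and their 95% intervals together ran from -0.68 to 0.58. Of the 65 members, 64 had an interval within a 2-fold change in either direction, against 99.1% of all genes, with kqt-2 as the exception. Within 0.5 log2 units in either direction lay the intervals of 55 members (84.6%), a smaller share than the 90.0% of all genes. At 2 h the changes of the 64 genes not called ran from -0.44 (twk-12, adjusted p = 0.413) to 0.25, with intervals from -0.90 to 0.57. Of the 65 intervals at that time, 64 lay within 2-fold (98.5% of all genes) and 53 within 0.5 (80.3% of all genes). At 1 h the changes of the 65 genes ran from -0.24 (unc-58, adjusted p = 0.807) to 0.39 (egl-36), with intervals from -0.59 to 0.70. All 65 of these lay within 2-fold (99.4% of all genes) and 55 within 0.5 (84.5% of all genes). These are intervals of single genes, not adjusted for their number.

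At an unadjusted p under 0.05, the 3 members at 1 h were egl-36, sup-9 (0.24, adjusted p = 0.714) and twk-35 (0.29, adjusted p = 0.774). Those at 2 h were kqt-2, irk-3, twk-2 (-0.35, adjusted p = 0.351) and twk-26, 4 members against 12.8% of all genes. Of the 12 arrays, twk-35 lay below the lower quartile in 9 and twk-2 in 6. Comparisons with 0 h share the 4 arrays of that time, and those of 1 h and 2 h come from replicate numbers 1 and 2 alone. The F test over the 3 changes from 0 h called 2 members, kqt-2 (adjusted p = 0.000267) and twk-26 (adjusted p = 0.0195), against 1.91% of all genes, and 8 members had an unadjusted p under 0.05 in it, against 13.7% of all genes. From 1 h to 2 h limma called 0 members and 0.0% of all genes, with 4 members at an unadjusted p under 0.05, against 6.28% of all genes.

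**Figure D4:**
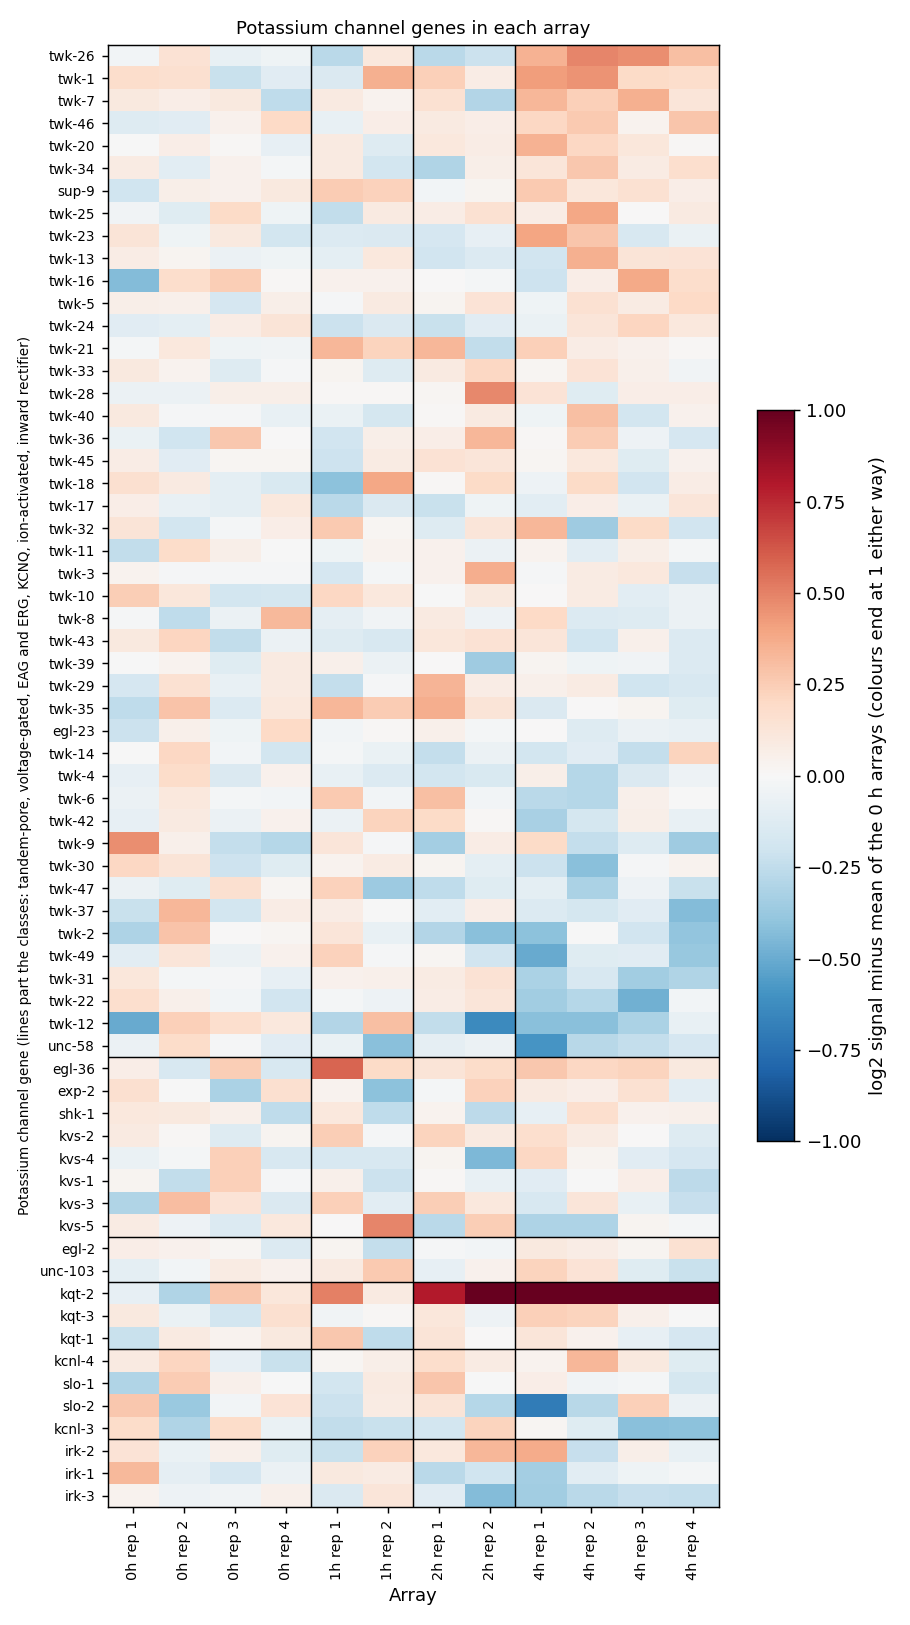
Log2 signal minus the mean of the 0 h arrays, as colour, for the 65 potassium channel genes (rows, grouped by class) in each of the 12 arrays (columns, grouped by time). The row of kqt-2 is shaded upward from 2 h on, and colours end at 1 in either direction.

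Of the 65 members, 11 were read by more than 1 probe set. At 4 h the probe sets of 6 of these genes lay on the same side of 0 and those of 5 did not (slo-2, twk-17, twk-45, twk-7 and unc-103). Apart from kqt-2, the widest gap was that of twk-7, from -0.11 to 0.26. Within the 0 h arrays the SD of a member had a median of 0.148, beside 0.119 for all genes, and ran from 0.023 to 0.345. Only kqt-2 spanned more than 1 log2 unit over the 12 arrays, and the median span was 0.58. A pair of members, twk-21 and twk-22, are next to each other among the protein-coding genes of the WBcel235 table, and their changes were 0.09 and -0.29 at 4 h.

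Genes that act with potassium channels were mostly uncalled as well. Of 12 measured accessory subunits and regulators, 1 rose and 0 fell at 4 h, against 2.48% of all genes called. Their median change was -0.05. The gene that rose was islo-1, which encodes a protein that binds and places the SLO-1 channel in muscle. Its level was higher than at 0 h by 0.69 at 2 h (adjusted p = 0.00487) and by 0.59 at 4 h (4.95 against 4.35, adjusted p = 0.00195). Both calls of islo-1 were kept without each single array, and both were lost with the arrays of replicate numbers 1 and 2 alone (adjusted p = 0.112 and 0.158). The genes of the SUP-9 partners, named after their values were seen, had changes of -0.21 (unc-93, adjusted p = 0.44) and -0.22 (sup-10, adjusted p = 0.638).

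Of 7 genes of the sodium-potassium pump, which builds the gradient these channels use, 0 rose and 1 fell at 4 h. Over all genes, 2.48% were called in this comparison. The alpha-subunit-like gene catp-3 fell by 1.01 at 4 h, from 7.39 to 6.38 (2.02-fold lower, adjusted p = 0.00473), and the call was kept without each single array. With the arrays of replicate numbers 1 and 2 alone its change was -0.62 (adjusted p = 0.332). The other 6 pump genes did not pass, with changes from -0.16 (nkb-2) to 0.20 (nkb-3, adjusted p = 0.16). Among them were eat-6 (0.03, adjusted p = 0.912) and nkb-1 (-0.03, adjusted p = 0.953), all named after their values were seen. Of 3 measured genes of the sodium leak channel complex, 1 passed at 4 h, against 2.48% of all genes. This was unc-80, which fell by 0.33 (adjusted p = 0.0305). This call was lost without any one of 6 arrays (adjusted p up to 0.096), with trend and robust variance settings (adjusted p = 0.0651) and with replicate numbers 1 and 2 alone (adjusted p = 0.458).

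The remaining channel lists had 0 members past the threshold in limma at 4 h, where 2.48% of all genes passed. They were 9 calcium channel genes (ccb-2 -0.27, adjusted p = 0.0879), 6 chloride channel genes (clh-4 0.10, adjusted p = 0.863), 5 cyclic nucleotide-gated channel genes (tax-2 -0.24, adjusted p = 0.579) and 15 TRP channel genes (gon-2 0.27, adjusted p = 0.182). Their median changes were 0.00, 0.04, -0.09 and 0.01. An unadjusted p under 0.05 was reached by 2, 0, 0 and 1 of their genes, against 13% of all genes. Markers of neurons and body wall muscle, where most potassium channels act, gave 0 calls of 12 and 0 of 8 at 4 h. Their median changes were 0.019 and -0.045, and 0 genes had an unadjusted p under 0.05, against 13% of all genes. Of the 8 muscle markers 7 lay below 0 at 4 h, while all 8 lay above at 1 h (median 0.098) and 2 h (0.161). Over all genes 45.4% lay above 0 at 4 h, 46.9% at 1 h and 46.6% at 2 h. Both lists gave 0 calls at 1 h and 2 h. An unadjusted p under 0.05 was reached by 1 neuron marker at 1 h and 2 at 2 h, against 6.44% and 12.8% of all genes. The lists of pharynx (6 genes, median -0.09), hypodermis (6 genes, 0.005), germline (6 genes, 0.03) and sperm (3 genes, -0.165) also gave 0 calls at 4 h. In these lists 0 genes had an unadjusted p under 0.05 at 4 h, and 2 of the 6 pharynx markers did at 2 h.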

How the data were processed

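Total RNA of whole adults was amplified and labelled with biotin by a NuGEN kit, per the labels' protocols, and measured on 12 arrays whose probe set names are of the Affymetrix kind. The authors deposited a log2 value per probe set from RMA, per the submitters' processing notes. Base 2 is taken from how RMA works and from values between 1.508 and 14.36. Its version, filters and any build were not stated. The ranked values of each array lay within 0.11 of the mean array. The platform annotation gave 1 symbol for 20766 of 22548 probe sets, several for 887 and none for 895, and 20701 of the named ones matched the WBcel235 gene table, which changed 0 symbols.

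A mean per time was fitted to all probe sets with limma 3.58.1 in R 4.3.3 (8 residual and 5.03 prior degrees of freedom), with two-sided p-values adjusted by Benjamini-Hochberg over 22548 probe sets and a threshold of 0.05. Times with 2 arrays take their spread from all groups. The 95% intervals use the moderated standard errors, and arrays, not animals, limit the precision. The fit was tested on simulated data. Shares of all genes use 1 probe set per gene. The rule for named genes took all called members, the 2 smallest p-values of each class at 4 h, the highest and lowest change at each time, and a fixed set of channels with known roles. For other channel lists it took up to 3 called genes, or the first by p. The members, lists and rules were chosen with earlier results of these data known.

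Deviations from the group mean correlated between 0 h and 4 h arrays of equal replicate number in 4 of 4 pairs (r = 0.169 to 0.314, against -0.29 to 0.147 for other numbers). The numbers were therefore taken to pair these 8 arrays, from the values and not from the labels. The main fit holds no replicate term, so its p-values and intervals do not use this pairing. In limma with a replicate block over these 8 arrays, kqt-2 and twk-26 passed at 4 h (adjusted p = 0.00199 and 0.0245). Correlations of the same kind ran from -0.075 to 0.127 where a 1 h or 2 h array met a 0 h or 4 h array of its number. The 1 h and 2 h arrays were therefore not taken as paired with those of 0 h and 4 h. Between 1 h and 2 h arrays r was 0.185 for the same number and -0.185 for unlike numbers. With 2 arrays at each of these times, the values mirror each other. Alternatives were the replicate block, subsets of arrays, quantile normalization, the brighter 50% of probe sets, the mean over a gene's probe sets, no cross-hybridising probe sets, other variance settings and leaving out each array. No sequence is shown.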

Additional observations from a re-analysis of the deposited data

Results flagged for a closer look

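In the 65 members, 130 groups of 4 arrays were examined for an array far from the other 3, and chance marks about 1 in 20 such groups. There were 5 of them, all at 0 h. In replicate 4, shk-1 read 3.34 and the others 3.64 to 3.70, and twk-7 read 4.36 and the others 4.69 to 4.71. In replicate 3, twk-5 read 6.55 and the others 6.77 to 6.78. In replicate 2, twk-21 read 4.36 and the others 4.22 to 4.24. In replicate 1, twk-3 read 2.13 and the others 2.08 to 2.09.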

How the results depend on the processing

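Limits common to all results are the number of arrays, the dimness of most members and signal over background that was not assessed. With the arrays of replicate numbers 1 and 2 alone, 1 member was called at 4 h, 0 at 2 h and 1 in the F test, in place of 2, 1 and 2. Among the brighter 50% of probe sets, where 5 members remain, 1 was called at 4 h and 1 in the F test. With the replicate block over the 12 arrays, 1 member (twk-26, change 0.682, adjusted p = 0.033) was called from 2 h to 4 h in place of 0. The 1 h and 2 h arrays were not taken as paired with those of 0 h and 4 h. With the block over the 8 arrays of 0 h and 4 h, 3 were called at 4 h (with twk-1). The replicate block changed no other call of a member. With the mean of a gene's probe sets 3 were called at 4 h and 3 in the F test (with twk-31), and without probe sets that may read several transcripts kqt-2 and twk-26 were called at 4 h. Leaving out each array in turn gave 1 to 2 calls at 4 h, 0 to 1 at 2 h, 0 to 1 from 2 h to 4 h and 1 to 2 in the F test. The F test of twk-26 was lost with replicate numbers 1 and 2 alone (adjusted p = 0.28) and without 4 h replicate 2, 4 h replicate 3 or 2 h replicate 2 (0.054 to 0.0773). Uncalled changes took the other sign with replicate numbers 1 and 2 alone for egl-23 (0.018), exp-2 (-0.002), kcnl-2 (-0.237), kcnl-3 (0.006), kqt-1 (0.148), kvs-1 (0.052), shk-1 (-0.06), slo-1 (0.039) and twk-18 (-0.054), and with quantile normalization for kqt-1 (0.01). Without a single array the 4 h change ranged across 0 for clh-4 (-0.001 to 0.193), egl-23 (-0.134 to 0.004), exp-2 (-0.054 to 0.106), kcnl-2 (-0.031 to 0.152), kqt-1 (-0.094 to 0.029), kvs-1 (-0.16 to 0.001), shk-1 (-0.04 to 0.087), slo-1 (-0.141 to 0.045), twk-18 (-0.056 to 0.072), twk-40 (-0.061 to 0.1) and unc-103 (-0.068 to 0.079), as did twk-26 at 1 h (-0.268 to 0.103) and from 1 h to 2 h (-0.345 to 0.025). The causes were not tested.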
